A study of Mus musculus with 10 samples.

Results

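Protein folding in the lens was followed through 35 genes of the chaperone machinery and the unfolded protein response, chosen by gene symbol: 24 of the endoplasmic reticulum and the stress pathways that serve it, and 11 of the cytosol and mitochondria. Each gene was read from the probe set named for it alone, and a gene with several was read from the brightest of them on average over the 10 arrays. In this way 32 of the 35 genes were measured, among 19938 genes on the array: all 24 of the endoplasmic reticulum branch and 8 of the 11 of the cytosolic and mitochondrial branch. Hspa1b had no probe set named for it alone and was left out, and Hsp90ab1 and Hsf1 were not analysed here.

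The lenses came from E13.5 mouse embryos, with 5 arrays per group, and every embryo carried loxP-flanked alleles of Dicer, the enzyme that cuts microRNA precursors into mature microRNAs. The controls, Le-Cre-/-;DicerloxP/loxP, are called wild type in the sample titles but differ from a wild type by these floxed alleles. The DicerCN embryos, Le-Cre+/-;DicerloxP/loxP, also carried Le-Cre, in which a Pax6 promoter drives the recombinase in the surface ectoderm that forms the lens and corneal epithelium, from E9.0 onwards. No group carried Cre without floxed Dicer. Both lenses of an embryo were pooled into 1 RNA sample, so each array stands for 1 embryo, and 100 ng of total RNA went into each labelling. Values are log2 signals. A gene was called changed at an adjusted p below 0.05 in limma, a linear model with a moderated variance, after Benjamini-Hochberg adjustment over all 19938 genes.

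All 11 lens markers were strongly detected, with control means between 10.83 and 14.42, and none was called changed. Some arrays carried more RNA of neighbouring tissue. The mean log2 signal of 8 striated muscle genes was 9.76 in control 4, whereas the DicerCN arrays had 6.03 to 6.47. Neural retina markers reached 9.0 in DicerCN 5 and 7.91 in DicerCN 4, against at most 7.55 in the controls. Pigment epithelium markers were at 7.63, 7.14 and 6.99 in DicerCN 4, 5 and 1, against at most 6.24 in the controls. DicerCN 2 and 3 were at 5.95 and 6.13. Of the 7 pigment epithelium markers, 6 had a higher mean in DicerCN, and none was called changed. Of 14 macrophage markers all had a higher mean in DicerCN, and Csf1r, Cx3cr1 and Ctss rose. The mean macrophage marker signal ran from 6.20 to 6.89 in controls and from 6.74 to 7.55 in DicerCN. Dicer1 itself differed by 0.13 (SE 0.0844, limma adjusted p = 0.472), and since the floxed exons are not given, its probe set does not check the deletion. The arrays were made from whole lenses, in which fewer cells of a type and less RNA per cell cannot be told apart.

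Secreted and membrane proteins fold in the endoplasmic reticulum with the help of Hsp70 and Hsp90 family chaperones, lectins and disulfide isomerases. When unfolded protein builds up there, the membrane sensors Ire1 (Ern1), Perk and Atf6 act through the spliced form of Xbp1, translation of Atf4 and cleavage of Atf6, and chaperone and degradation genes are transcribed. Cytosolic heat shock proteins answer to Hsf1 instead, and the lens depends on small heat shock proteins, the alpha-crystallins, to keep its densely packed proteins soluble for life. A gene-level signal reads the amount of transcript and does not measure Xbp1 splicing, Atf6 cleavage or the phosphorylation of translation factors.

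Promoter elements that the stress pathways are known to use are shown first, because the expression values below are given for the genes that hold them. RefSeq promoter windows (GRCm38.p6, 250 bases before to 50 after a gene's start) were at hand for 29 of the 35 genes. The endoplasmic reticulum stress element was searched on both strands only in the form CCAAT followed after 9 bases by CCACG, and not at other spacings. It was found in 37 of 27025 genes with a window (0.14%), and 7 of those are among the 22 endoplasmic reticulum genes with a window, while 0 of the 7 cytosolic and mitochondrial genes held it. The stretches below are written 5′ to 3′ in the direction of the gene, with the parts of the element in capitals; CGTGG and ATTGG are the element on the other strand.
Hspa5, chr2:34772013-34772055, plus strand: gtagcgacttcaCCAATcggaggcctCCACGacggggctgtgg
Hsp90b1, chr10:86705626-86705668, minus strand: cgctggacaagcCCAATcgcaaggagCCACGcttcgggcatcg
Hsp90b1, chr10:86705521-86705563, minus strand: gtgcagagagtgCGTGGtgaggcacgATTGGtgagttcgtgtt
Pdia6, chr12:17266479-17266521, plus strand: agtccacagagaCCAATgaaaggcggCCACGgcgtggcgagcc
Calr, chr8:84847063-84847105, minus strand: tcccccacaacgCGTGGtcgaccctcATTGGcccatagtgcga
Canx, chr11:50325788-50325830, minus strand: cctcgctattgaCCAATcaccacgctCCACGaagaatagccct
Dnajc3, chr14:118937815-118937857, plus strand: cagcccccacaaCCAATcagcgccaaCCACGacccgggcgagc
Creld2, chr15:88819508-88819550, plus strand: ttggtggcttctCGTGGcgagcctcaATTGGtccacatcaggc

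Heat shock units were searched as GAANNTTC, which reads the same on both strands. They were found in 2442 of the 27025 genes (9.04%), among them 6 of the 7 cytosolic and mitochondrial genes and 1 of the 22 endoplasmic reticulum genes, Asns. A longer array of 3 units, GAANNTTC followed after 2 bases by GAA, on either strand, was held by 179 genes (0.66%) and by Hspd1, Hspe1 and, after the start, Hsph1. Hspd1 and Hspe1 lie head to head and their windows share 285 bases, so the stretch below belongs to both. Capitals mark the 3 units, and in Hspb1 the GAANNTTC at -117 to -110 from the start. Hspb1 holds a further GAANNTTC at -97 to -90, which is not shown.
Hspd1, chr1:55088047-55088083, minus strand: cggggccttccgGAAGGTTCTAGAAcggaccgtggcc
Hspb1, chr5:135887790-135887821, plus strand: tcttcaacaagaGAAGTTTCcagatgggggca

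The core of the amino acid response element, to which Atf4 and Chop bind, was searched as TGATGCAA on both strands and was held by 279 genes (1.03%), among them Atf3, Chac1 and Herpud1. Capitals mark the core, which lies on the other strand in all 3.
Atf3, chr1:191183424-191183455, minus strand: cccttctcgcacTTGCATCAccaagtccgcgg
Chac1, chr2:119351037-119351068, plus strand: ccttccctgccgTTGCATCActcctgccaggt
Herpud1, chr8:94386305-94386336, plus strand: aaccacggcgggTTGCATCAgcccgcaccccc

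The Atf6 and Xbp1 site TGACGTGG, searched on both strands, was in 193 genes (0.71%) and in none of the 29. The window of Dnajb9, the gene with the largest difference below, held none of these elements. Its 250 upstream bases are shown with the single CCAAT and both CCACG parts in capitals, which do not stand at the spacing of the element.
Dnajb9, chr12:44210069-44210318, minus strand: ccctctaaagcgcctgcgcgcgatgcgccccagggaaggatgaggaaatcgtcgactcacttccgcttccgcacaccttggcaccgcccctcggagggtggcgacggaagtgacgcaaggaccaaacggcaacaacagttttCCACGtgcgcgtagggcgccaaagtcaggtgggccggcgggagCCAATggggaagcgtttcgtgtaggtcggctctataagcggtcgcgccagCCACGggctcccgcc

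Of the 32 genes, 1 changed in DicerCN lenses: Dnajb9, a co-chaperone of the endoplasmic reticulum, rose. That is 3.12% of the members, against 1303 of 19938 genes (6.54%) on the whole array, 511 of them higher (2.56%) and 792 lower (3.97%). The signs were balanced, with 17 positive and 15 negative differences, and the median difference was 0.03, against -0.00 over all genes. The median size, sign aside, was 0.11 in the members and 0.10 in all genes. For 29 of the 32 the 95% confidence interval of the difference lay within 1.5-fold in either direction; the exceptions were Dnajb9, Sdf2l1 and Hspb1. Of all 19938 genes, 17349 had such an interval. At an unadjusted p below 0.05 the limma fit held 5 members, Dnajb9, Sdf2l1, Edem1, Ern1 and Pdia4, and 3708 of all genes.

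**Figure D1:**
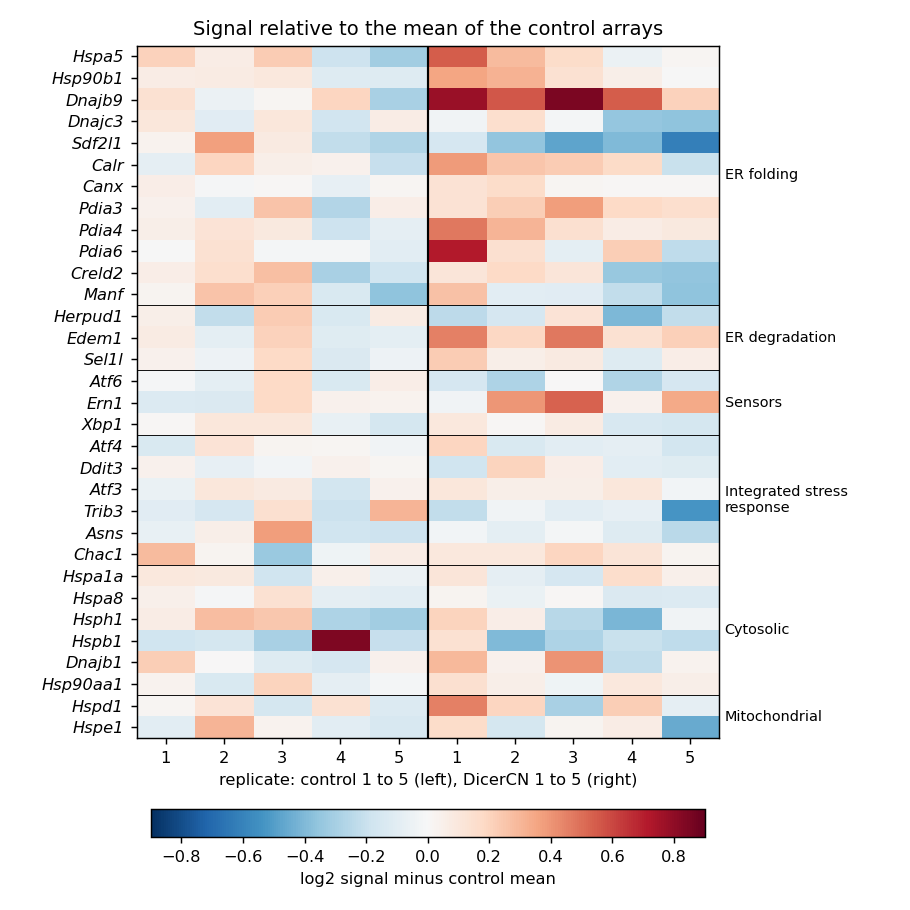
Log2 signal of each of the 32 measured genes (lines) on each of the 10 arrays (columns, 5 control and 5 DicerCN), as the difference from that gene's control mean; colour gives the size of the difference. Dnajb9 is above its control mean on all 5 DicerCN arrays, the largest difference in the control columns is Hspb1 on control 4, and DicerCN 1 is the highest array for 9 of the 32 genes.

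**Figure D2:**
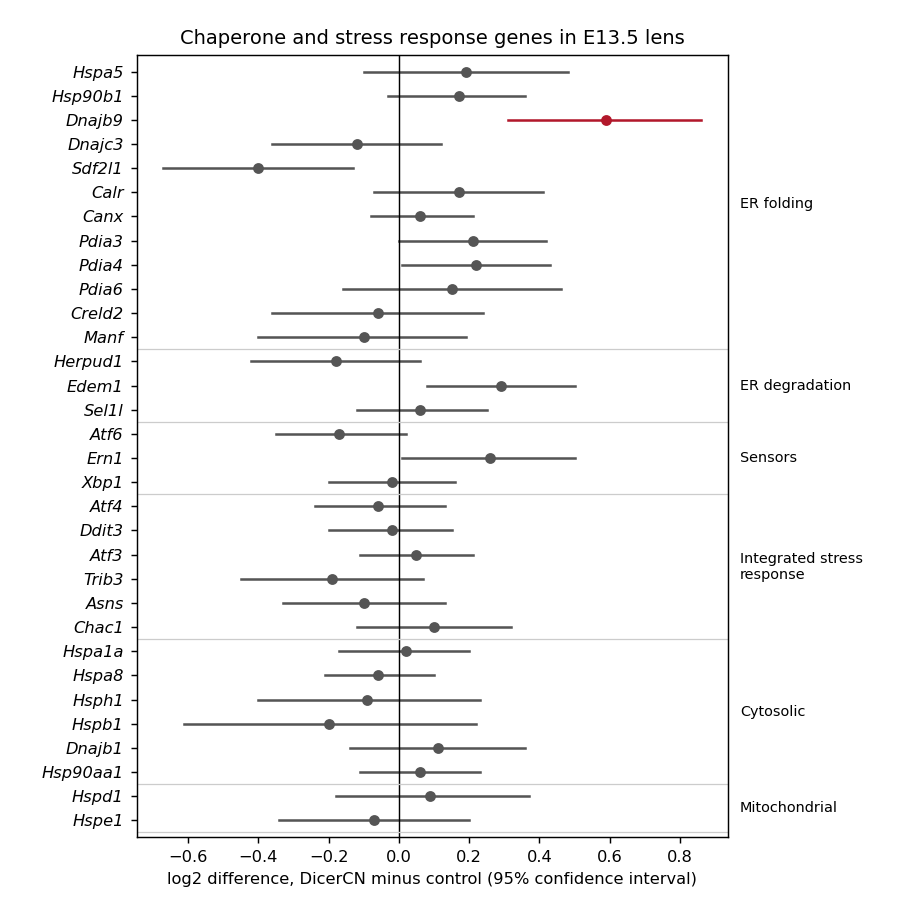
Difference DicerCN minus control (log2, horizontal axis) for each measured gene, with points for the limma estimate and bars for its 95% confidence interval, grouped by role. The interval of Dnajb9 runs from 0.31 to 0.86, whereas those of the cytosolic genes all include 0.

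Among the 12 chaperones and folding enzymes of the endoplasmic reticulum, 1 rose and 0 fell, with 8 positive and 4 negative differences, a median of 0.16 and a range from -0.40 to 0.59. Dnajb9, also called ERdj4, is an Hsp70 co-chaperone that binds misfolded clients and represses Ire1. Its log2 signal was 7.25, 7.06, 7.13, 7.31 and 6.82 in controls 1 to 5 and 7.89, 7.67, 7.96, 7.66 and 7.32 in DicerCN 1 to 5. The groups did not overlap, although the lowest DicerCN array, DicerCN 5, and the highest control, control 4, were almost level; 1472 of all genes (7.38%) had groups that did not overlap. The difference was 0.59 (SE 0.128, 95% confidence interval 0.31 to 0.86, limma adjusted p = 0.0164), a 1.5-fold rise. An exact 2-sided permutation test over the 252 ways of parting the arrays gave p = 0.00794, the smallest it can give.

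Macrophage marker signal was set beside Dnajb9 array by array. DicerCN 3 and DicerCN 1, highest for Dnajb9, had mean macrophage marker signals of 7.55 and 7.45, the highest of all arrays. Control 5, lowest for Dnajb9, had 6.20, the lowest of all, and control 4, the control with most Dnajb9, had 6.89, the highest control. DicerCN 4 was at 7.66 for Dnajb9 and 7.24 for the markers, and DicerCN 5 at 7.32 and 6.77. Controls 2 and 3 were at 7.06 and 7.13 for Dnajb9 and at 6.56 and 6.60 for the markers. DicerCN 2 and control 1 departed most from this order. DicerCN 2, with Dnajb9 at 7.67, had a marker mean of 6.74, below control 4. Control 1, the second highest control for Dnajb9 at 7.25, had 6.36, the second lowest of the controls. Markers of other tissues shared part of this order. The mean of 6 periocular mesenchyme markers was highest in DicerCN 3 (8.84) and lowest in control 5 (7.38). Control 4, at 8.59, stood above DicerCN 1, 2, 4 and 5. The mean of 7 endothelium markers was highest in DicerCN 3 and 1 (9.44 and 9.22) but lowest in DicerCN 5 (8.18). Neither mean was used as a covariate. When the macrophage score entered the fit as a covariate, the difference in Dnajb9 was 0.24 (limma adjusted p = 0.5). That score ran from 6.20 to 6.89 in controls and from 6.74 to 7.55 in DicerCN, so genotype and macrophage content are hard to part. What part macrophage content had in Dnajb9 was not tested. With the neural retina score the difference was 0.72 (limma adjusted p = 0.00439). With a pigment epithelium score, a covariate added after seeing the data, it was 0.65 (limma adjusted p = 0.0528). The difference in Dnajb9 was called without each array in turn, with limma adjusted p from 0.00492 to 0.0445. Without control 4, DicerCN 4 and DicerCN 5 together, also added after seeing the data, it was 0.78 (limma adjusted p = 0.0076).

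**Figure D3:**
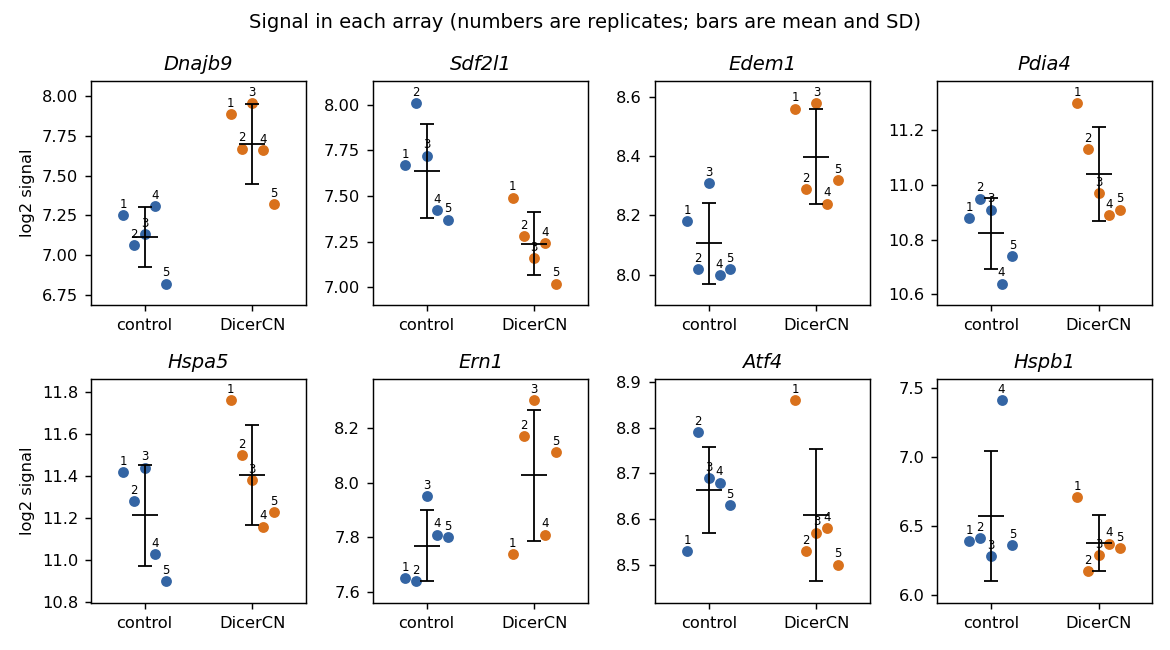
Log2 signal of 8 genes on each array (points; 5 control and 5 DicerCN), with bars for the mean and SD of each group. The Dnajb9 groups are separate, from 6.82 to 7.31 in controls and from 7.32 to 7.96 in DicerCN, while Hspa5, Ern1 and Atf4 overlap, and 1 control array of Hspb1 stands at 7.41.

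Hspa5, the Hsp70 of the endoplasmic reticulum known as BiP and the usual readout of the unfolded protein response, had log2 signals of 11.42, 11.28, 11.44, 11.03 and 10.90 in controls and 11.76, 11.50, 11.38, 11.16 and 11.23 in DicerCN. The groups overlapped, and the mean was 0.19 higher in DicerCN (95% confidence interval -0.10 to 0.48, limma adjusted p = 0.515). Hsp90b1, the Hsp90 of this compartment, ran from 11.87 to 12.08 in controls and from 11.98 to 12.34 in DicerCN, a difference of 0.17 (SE 0.0894, limma adjusted p = 0.358). Of the 7 genes with the stress element, Hspa5 has it closest to the start and Hsp90b1 has 2 copies, and for both the interval of the difference lies within 1.5-fold.

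Of the disulfide isomerases, Pdia4 had the largest difference. It measured 10.88, 10.95, 10.91, 10.64 and 10.74 in controls and 11.30, 11.13, 10.97, 10.89 and 10.91 in DicerCN, a difference of 0.22 (SE 0.0964, limma adjusted p = 0.241). DicerCN 1 to 3 lay above every control and DicerCN 4 and 5 among them. Pdia3, the isomerase that works with the lectin chaperones, differed by 0.21 (limma adjusted p = 0.274). Pdia6 differed by 0.15 with an uneven spread, since DicerCN 1 stood at 12.11 and the other DicerCN arrays between 11.17 and 11.62. Canx and Calr, the membrane-bound and soluble lectin chaperones that hold glycoproteins for folding, differed by 0.06 and 0.17 (limma adjusted p = 0.693 and 0.487). None of these passed the test.

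The 4 negative differences in this group were in Sdf2l1, Dnajc3, Manf and Creld2, all genes known to be induced by stress of the endoplasmic reticulum. Sdf2l1, a luminal protein found in complex with co-chaperones, measured 7.67, 8.01, 7.72, 7.42 and 7.37 in controls and 7.49, 7.28, 7.16, 7.24 and 7.02 in DicerCN. All 5 DicerCN arrays were below the control mean and 4 were below every control, with DicerCN 1 among the controls. The difference was -0.40 (SE 0.125, 95% confidence interval -0.67 to -0.13), which missed the threshold (limma adjusted p = 0.081); without DicerCN 1 it was -0.47 (limma adjusted p = 0.0483). Dnajc3 (p58IPK, a co-chaperone of Hspa5) differed by -0.12, Manf, a secreted folding factor, by -0.10, and Creld2, a secreted protein with isomerase activity, by -0.06. Their limma adjusted p values were 0.641, 0.776 and 0.877.

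The 7 genes with the stress element did not move as a block: 5 were higher and 2 lower in DicerCN, none was called, their median difference was 0.15 and they ran from -0.12 in Dnajc3 to 0.19 in Hspa5. The smallest limma adjusted p among them was 0.358.

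Degradation of misfolded protein from the endoplasmic reticulum was represented by 3 genes, none of which passed the test. Edem1, a lectin that takes misfolded glycoproteins out of the folding cycle, measured 8.18, 8.02, 8.31, 8.0 and 8.02 in controls and 8.56, 8.29, 8.58, 8.24 and 8.32 in DicerCN. Each DicerCN array was above the control mean, and 3 were above every control. The difference was 0.29 (SE 0.0948, limma adjusted p = 0.0978; exact permutation p = 0.0238). Sel1l, the adaptor of the Hrd1 ubiquitin ligase, differed by 0.06 (limma adjusted p = 0.772), and Herpud1, a scaffold of the same complex that carries the amino acid response core shown above, by -0.18 (limma adjusted p = 0.444).

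The sensors gave differences of both signs. Ern1, the kinase and ribonuclease that splices Xbp1, measured 7.65, 7.64, 7.95, 7.81 and 7.80 in controls and 7.74, 8.17, 8.30, 7.81 and 8.11 in DicerCN. DicerCN 2, 3 and 5 were above every control and the other DicerCN arrays were among them, for a difference of 0.26 (SE 0.113, limma adjusted p = 0.236). Atf6 ran from 8.60 to 8.92 in controls and from 8.46 to 8.74 in DicerCN, with 4 DicerCN arrays below every control; the difference was -0.17 (SE 0.0845, limma adjusted p = 0.325). Xbp1, counted over its spliced and unspliced forms, differed by -0.02, with a 95% confidence interval from -0.20 to 0.16.

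The integrated stress response, in which phosphorylated eIF2alpha favours translation of Atf4 and Atf4 in turn raises Chop and amino acid genes, had no called gene in DicerCN. None of its 6 genes had an unadjusted p below 0.05 in limma, and all 6 confidence intervals lay within 1.5-fold. Their median difference was -0.04, their range ran from -0.19 to 0.10, and the smallest limma adjusted p was 0.461. Ddit3, which encodes the death-linked factor Chop, measured 7.38, 7.27, 7.32, 7.38 and 7.36 in controls and 7.16, 7.54, 7.4, 7.25 and 7.23 in DicerCN. The DicerCN arrays lay on both sides of the controls, and the difference was -0.02 (95% confidence interval -0.20 to 0.15).

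Atf4 measured 8.53, 8.79, 8.69, 8.68 and 8.63 in controls and 8.86, 8.53, 8.57, 8.58 and 8.50 in DicerCN. DicerCN 1 was above every control and the other DicerCN arrays were close together at the low end of the controls, for a difference of -0.06 (SE 0.085, limma adjusted p = 0.797). Trib3, a pseudokinase that feeds back on Atf4 and Chop, had the largest difference of the group, -0.19 (SE 0.121), with DicerCN 5 lowest at 5.78. Asns, asparagine synthetase, differed by -0.10, Chac1, which degrades glutathione, by 0.10, and Atf3 by 0.05. The control means of Trib3 and Atf3, 6.31 and 6.25, lay below the array medians of 6.54 to 6.56. Their signal over background was not assessed.

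In the cytosol and mitochondria no gene passed the test in either direction, none of the 8 had an unadjusted p below 0.05 in limma, and the smallest limma adjusted p was 0.671. There were 4 positive and 4 negative differences, with a median of -0.02 and a range from -0.20 to 0.11, and 7 of the 8 confidence intervals lay within 1.5-fold. Hspa1a, the heat-inducible Hsp70 and the usual readout of Hsf1, measured 6.8, 6.79, 6.52, 6.75 and 6.65 in controls and 6.81, 6.62, 6.55, 6.86 and 6.75 in DicerCN. The arrays of both groups covered the same range, and the difference was 0.02 (95% confidence interval -0.17 to 0.20). Hspa8, the constitutive Hsp70, differed by -0.06 (95% confidence interval -0.21 to 0.10), and Hsp90aa1, the inducible cytosolic Hsp90, by 0.06 (95% confidence interval -0.11 to 0.23). A further probe set of Hspa8 had a group SD of 0.56 and 0.60 and a difference of 0.21.

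Dnajb1, the Hsp40 partner of Hspa1a, differed by 0.11, and Hsph1, the Hsp110 that exchanges nucleotide on Hsp70, by -0.09. Hspb1, a small heat shock protein, measured 6.39, 6.41, 6.28, 7.41 and 6.36 in controls and 6.71, 6.17, 6.29, 6.37 and 6.34 in DicerCN. Control 4 alone was high, in the second probe set of the gene too, and that is also the array with the high muscle marker signal, whose part in the value was not tested. The difference of -0.20 (SE 0.192) became 0.01 without control 4. The mitochondrial chaperonin Hspd1 measured 11.22, 11.32, 11.04, 11.34 and 11.08 in controls and 11.65, 11.39, 10.91, 11.42 and 11.12 in DicerCN, with DicerCN 3 lowest and DicerCN 1 highest of all arrays. Hspd1 and its co-chaperonin Hspe1 differed by 0.09 and -0.07. The 6 measured genes with a heat shock unit, 5 of this branch and Asns of the endoplasmic reticulum branch, had a median difference of -0.08, from -0.20 to 0.09.

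Set side by side, the 24 genes of the endoplasmic reticulum and its stress pathways had a median difference of 0.06 and a median size of 0.16, and the 8 cytosolic and mitochondrial genes a median of -0.02 and a median size of 0.08; all genes had a median size of 0.10. Per array, the mean of the endoplasmic reticulum branch, as log2 signal minus each gene's control mean, was 0.03, 0.03, 0.11, -0.10 and -0.07 in controls and 0.17, 0.10, 0.11, -0.04 and -0.11 in DicerCN. The cytosolic and mitochondrial branch was at 0.03, 0.06, -0.02, 0.04 and -0.11 in controls and at 0.19, -0.04, -0.07, -0.06 and -0.10 in DicerCN. DicerCN 1 was the highest array in both, and the groups overlapped in both.

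Embryos of 1 genotype differed among themselves by more than the group means did. The mean of the 12 folding genes ran from -0.15 to 0.12 in controls and from -0.14 in DicerCN 5 to 0.31 in DicerCN 1. Of the 24 endoplasmic reticulum genes, DicerCN 1 was the highest array for 8 and DicerCN 5 the lowest for 8; control 4 was lowest for 6 and control 5 for 5. DicerCN 5 also had the lowest lens marker mean, 12.01, with the other arrays between 12.21 and 12.61, and the highest retina marker mean. What part the tissue content had in these levels was not tested.

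**Figure D4:**
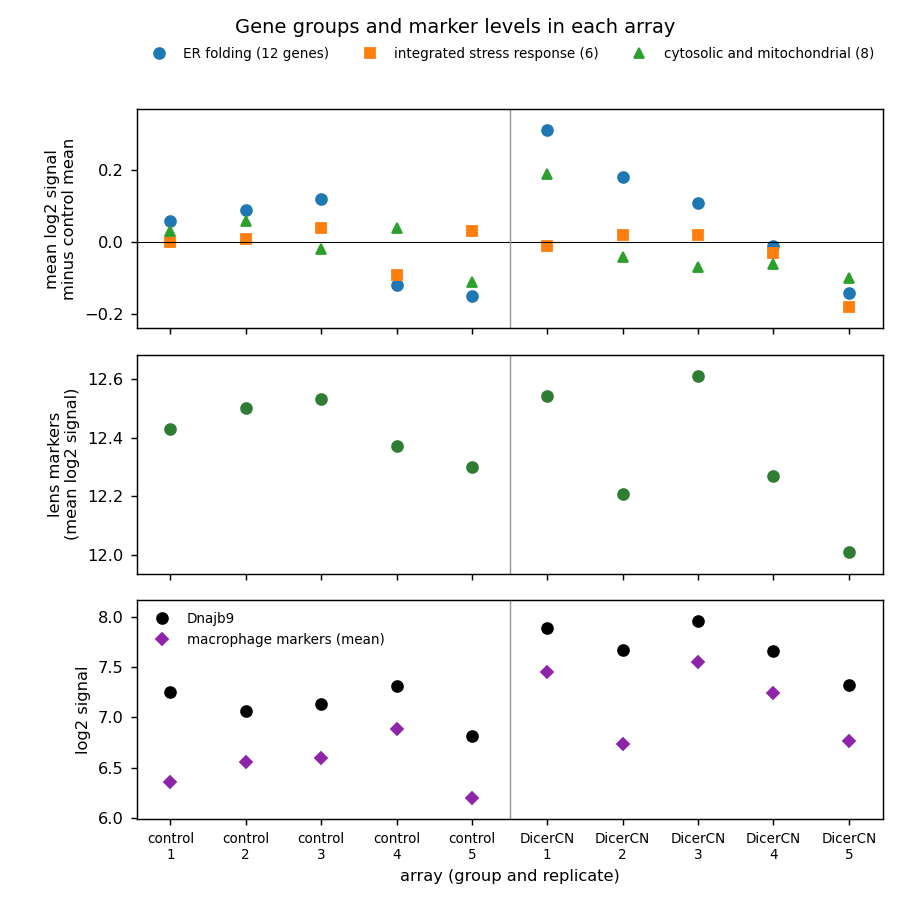
Per-array levels on the 10 arrays: mean log2 difference from the control mean of the folding, integrated stress response and cytosolic genes; mean log2 signal of the lens markers; and the Dnajb9 signal with the macrophage marker mean. Folding genes peak at 0.31 on DicerCN 1 and reach -0.14 on DicerCN 5, and Dnajb9 and the macrophage markers are both lowest on control 5.

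Further genes of the same systems were read from 8 lists, 147 measured genes in all, of which 6 rose and 9 fell (10.2%, against 6.54% of all genes). Of 32 other folding and translocation genes of the endoplasmic reticulum, 0 were called in limma and 4 had an unadjusted p below 0.05. The smallest p among them belonged to Ssr2, a subunit of the translocon-associated complex, at -0.28 (limma adjusted p = 0.0978), and to the isomerase Pdia5, at 0.22 (limma adjusted p = 0.104). Of 17 other degradation genes 1 rose and 1 fell. Ube2g2, a ubiquitin-conjugating enzyme of endoplasmic reticulum degradation, measured 8.76, 9.0, 8.77, 8.95 and 8.90 in controls and 8.39, 8.25, 8.08, 8.38 and 8.27 in DicerCN, a fall with no overlap (difference -0.60, SE 0.0833, limma adjusted p = 0.00115). Ube2j1, another such enzyme, rose by 0.36 (limma adjusted p = 0.0396), a call lost without control 1, 2, 3 or 4 or without DicerCN 1, 2 or 3 (limma adjusted p from 0.0624 to 0.0905). Of 15 other sensors and regulators 1 rose, Crebrf, a negative regulator of Creb3, by 0.56 (limma adjusted p = 0.0104).

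Among 18 other genes reported as targets of Atf4 or Chop, 3 rose and 2 fell (27.8% called, against 6.54% of all genes), with a median of -0.12, while Atf4 and Ddit3 themselves differed by -0.06 and -0.02. Slc7a11, the cystine transporter, measured 10.52, 10.87, 10.98, 9.91 and 10.35 in controls and 8.73, 8.98, 8.57, 8.89 and 8.86 in DicerCN. Every DicerCN array was below every control, and the difference of -1.72 (SE 0.172, limma adjusted p = 0.000153) was the largest in the 8 lists. Ddit4, an inhibitor of mTORC1 that p53 and hypoxia also induce, measured 7.68, 7.54, 7.65, 7.83 and 7.86 in controls and 8.77, 8.58, 8.30, 8.53 and 8.08 in DicerCN, a rise of 0.74 (SE 0.121, limma adjusted p = 0.00314). Tnfrsf10b, a death receptor that is also a p53 target, rose by 0.96 (limma adjusted p = 0.00299), and Sesn2, a stress-induced inhibitor of mTORC1 and p53 target, by 0.56 (limma adjusted p = 0.0137). Aldh18a1, of proline synthesis, fell, with a difference of -0.46 (limma adjusted p = 0.0168). The called genes of the list thus went both ways, with Slc7a11 and Aldh18a1 lower and Ddit4, Tnfrsf10b and Sesn2 higher.

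In the cytosol, 4 of 14 chaperonin and prefoldin genes fell, 0 rose, and 13 of the 14 had a lower mean in DicerCN, with a median of -0.15. Of all genes, 3.97% fell and 10036 of 19938 had a negative difference. These complexes fold newly made actin and tubulin. Pfdn5 fell by 0.43 (SE 0.0666, limma adjusted p = 0.00233) and Pfdn6 by 0.45 (SE 0.0978, limma adjusted p = 0.0168). Pfdn1 had a difference of -0.53 (limma adjusted p = 0.0293) and Cct7 one of -0.26 (limma adjusted p = 0.0364). The call of Pfdn1 was lost without control 1, 2, 3 or 5 or DicerCN 2, 3 or 5, and that of Cct7 without those and without DicerCN 4; the limma adjusted p then ran from 0.0541 to 0.0753 for Pfdn1 and from 0.0628 to 0.0924 for Cct7.

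Of 32 other genes of heat shock factors and of the Hsp70, Hsp90 and Hsp40 systems, 1 rose and 2 fell, a called share of 9.38%, near the 6.54% of all genes. Dnajb5, an Hsp40, rose by 0.33 (limma adjusted p = 0.036). Dnajb2, an Hsp40 of neurons and muscle, fell by 0.33 (limma adjusted p = 0.0369), and Bag1, a nucleotide exchange factor of Hsp70, by 0.31 (limma adjusted p = 0.0212). The Dnajb5 call was lost without control 1, 2, 3 or 5 or DicerCN 2, 4 or 5, that of Dnajb2 without the same controls or DicerCN 1, 4 or 5, and that of Bag1 without control 1 or 5; the limma adjusted p then lay between 0.053 and 0.104. None of the 7 other small heat shock proteins, which include the lens alpha-crystallins Cryaa and Cryab, was called in limma, and 2 had an unadjusted p below 0.05, Hspb6 at -0.33 and Hspb3 at -0.30. None of the 12 other mitochondrial chaperones and proteases was called, with 1 at an unadjusted p below 0.05, Grpel1 at -0.19; Dnaja3, next by p, was at -0.14.

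Once the macrophage score was a covariate, Ube2g2, Slc7a11 and Pfdn5 were called among the 15 genes called in these lists and the other 12 were not; over the whole array that fit called 205 genes. The SE of each of the 12 was larger in that fit and all 12 kept their sign. The difference was smaller in size for Tnfrsf10b (0.96 without the score, 0.68 with it), Ddit4 (0.74, 0.65), Sesn2 (0.56, 0.47) and Aldh18a1 (-0.46, -0.38). The same held for Dnajb2 (-0.33, -0.23), Crebrf (0.56, 0.53) and Bag1 (-0.31, -0.30). The difference was larger in size for Ube2j1 (0.36, 0.47), Dnajb5 (0.33, 0.39), Pfdn6 (-0.45, -0.53) and Pfdn1 (-0.53, -0.65). For Cct7 it was -0.26 in both fits. What part macrophage content had in these differences was not tested.

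**Figure D5:**
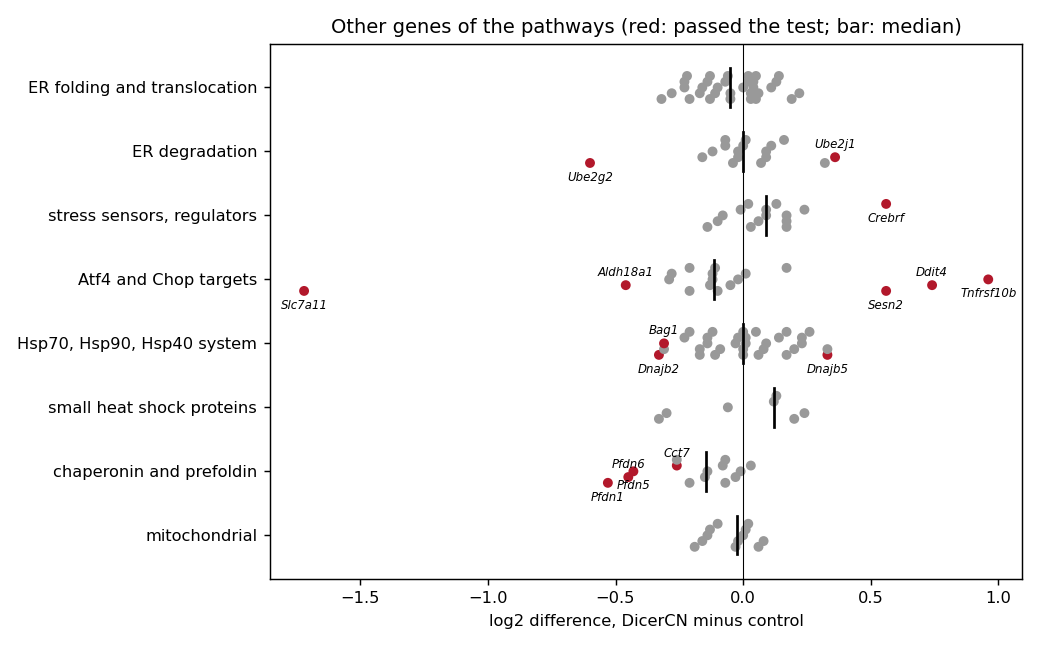
Difference DicerCN minus control (log2, horizontal axis) of every measured gene of 8 further lists of the folding and stress systems (points), with called genes in red and a bar at the median of each list. Chaperonin and prefoldin genes lie almost all to the left of 0 with a median of -0.15, and Slc7a11 stands at -1.72.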

How the data were processed

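RNA of 5 control and 5 DicerCN lens samples was hybridised to Affymetrix whole-transcript arrays. The deposited values are log2 signals per probe set, per the range of the values (1.91 to 15.24), and the authors' processing used GCOS, per the submitters' processing notes; how they were summarised and normalized was not given in the sources used here. Array medians lay between 6.54 and 6.56, so the values were used without further scaling. The number of arrays limits the precision (median SE 0.0986). Nothing in the labels gives a batch. Each limma p-value weighs a group difference against the spread between these embryos, with the variance moderated over all genes.

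Of 35557 probe sets, 21789 carried 1 gene symbol in the platform annotation, 1621 several and 12147 none; those with 1 symbol gave 19938 genes, each read from its probe set with the highest mean. Groups were compared with limma 3.58.1 (R 4.3.3) over all genes, with Benjamini-Hochberg adjustment, and single genes also with an exact 2-sided permutation test. The fit was tested on simulated data. The named genes are all members and, from each further list, the called genes (at most 6 by smallest p) or otherwise the 2 with the smallest p. Members and lists were chosen with earlier results of these data known, and the marker lists were read as mean log2 signals.

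Promoter letters came from RefSeq (GRCm38.p6) and were matched by symbol. Alternatives were a replicate block, quantile normalization, a filter on low signal, the mean of probe sets, other variance models, array weights, marker scores as covariates and leaving out arrays. Protein sequences were not used here.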

Additional observations from a re-analysis of the deposited data

Results flagged for a closer look

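In 3 of 106 sets of 5 arrays tested, 1 array stood apart from the other 4 by more than 0.71 of the range; chance gives about 1 in 20. Among the members these were Atf4 in DicerCN, where DicerCN 1 was at 8.86 and the others between 8.50 and 8.58, and Hspb1 in controls, where control 4 was at 7.41 and the others between 6.28 and 6.41. Among the further lists it was Tnfrsf10b in DicerCN, at 9.73 in DicerCN 3 and from 8.76 to 9.0 in the others.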

How the results depend on the processing

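Of the 53 genes followed under 22 alternatives, none changed direction where it was called. The count of called members, 1, all of it higher, became 0 with the macrophage score and 0 with the pigment epithelium score as a covariate (the latter added after seeing the data), where 205 and 717 of all genes were called against 1303. The pigment epithelium score also ended the calls of Crebrf (limma adjusted p = 0.0855), Aldh18a1 (0.0916), Bag1 (0.101), Dnajb5 (0.141), Dnajb2 (0.27) and Cct7 (0.0885), and the neural retina score those of Bag1 (0.0672), Dnajb5 (0.112), Dnajb2 (0.104), Pfdn1 (0.0691) and Cct7 (0.0976). Leaving out 1 array at a time gave 1 to 2 called members, 0 to 1 of them lower, and 784 to 1295 of all genes; without control 4, DicerCN 4 and DicerCN 5 together 798 of all genes were called. The median of the endoplasmic reticulum branch stayed between 0.00 and 0.10, and that of the cytosolic and mitochondrial branch between -0.04 and 0.02. Quantile normalization gave larger differences for some bright members. Pdia3 was at 0.29 (limma adjusted p = 0.081) against 0.21, and Hsp90b1 at 0.25 (limma adjusted p = 0.116) against 0.17. Hsp90aa1 was at 0.18 (limma adjusted p = 0.184) against 0.06. That fit still called 1 member, Dnajb9. Over all genes, arrays with the same replicate number did not deviate together. Their deviations from the group means correlated between -0.088 and 0.19, and 2 of 10 arrays correlated best with their own number. In the mean of the 12 folding genes, however, replicates 1, 2 and 3 lay above replicates 4 and 5 in both groups. The values were 0.06, 0.09, 0.12, -0.12 and -0.15 in controls and 0.31, 0.18, 0.11, -0.01 and -0.14 in DicerCN. Whether the embryos were paired was not tested for these genes. With the replicate block 1100 genes and 1 member were called, Dnajb9 at 0.59 (limma adjusted p = 0.00889), and the calls of Ube2j1, Bag1, Dnajb5, Dnajb2, Pfdn1 and Cct7 were lost (limma adjusted p from 0.0532 to 0.0931). The cause of these shifts was not tested. No detection calls were used, so signal over background was not assessed, and SEs of the members ran from 0.0673 to 0.192.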
